A study of Mus musculus with 2 samples.

Results

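Ly49-positive CD8 T cells were CD8 T cells sorted from MC38 tumours in which transcripts of the Ly49 receptor family were counted. MC38 is a mouse colon adenocarcinoma line. A barcode belonged to them if it had at least 500 detected genes, a mitochondrial share of UMIs (unique molecular identifiers, each standing for 1 counted transcript) under 10%, a UMI of a CD3 chain (Cd3d, Cd3e or Cd3g), a UMI of a CD8 chain (Cd8a or Cd8b1), no UMI of the delta chain constant gene Trdc, and at least 2 UMIs summed over Klra1, Klra3, Klra6, Klra7 and Klra9. This rule found 1441 cells among 14877 CD8 T cells and 17977 barcodes in all: 426 of 6847 CD8 T cells in the control library and 1015 of 8030 in the NK-depleted library. The remaining CD8 T cells, with 0 or 1 such UMI, numbered 6421 and 7015 and are called the other CD8 T cells. Both libraries came from wild-type (WT) mice carrying MC38 tumours, taken 9 days after implantation, and were made with 10x Genomics 5′ V2 chemistry from live CD8+ sorted cells. The control library was labelled PBS and the NK-depleted one a-NK1.1 antibody, an antibody against a surface protein of NK cells that is encoded by Klrb1c. The control library's own name carries the letters Iso, so whether its mice received PBS or an isotype antibody is not settled by the labels, nor do they say how many mice each library drew on. With 1 library for each treatment no difference between them has a replicate check, so no p-value is given: intervals are 95% and cover counting error only, and treatment, library and sort cannot be told apart.

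Ly49 receptors are type II C-type lectins of NK cells that read classical and related class I MHC molecules. Inhibitory members carry a cytoplasmic tyrosine motif that recruits phosphatases, whereas activating members signal through the adaptor DAP12, encoded by Tyrobp. Some alpha beta CD8 T cells carry them as well, among them memory-phenotype cells, intraepithelial cells and cells described as regulatory CD8 T cells, which express the transcription factor Helios, encoded by Ikzf2.

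The genes of the rule lie in 1 region on the minus strand of chromosome 6 (GRCm38, GENCODE M21): Klra6 at chr6:130013033-130026954, Klra9 at chr6:130178675-130193112, Klra7 at chr6:130218605-130233322, Klra3 at chr6:130323289-130337574 and Klra1 at chr6:130363917-130386874. Klra4, Klra8 and Klra10, which lie between them, were near 0 in these cells. To show how alike the family is where transcription starts, a 60-base stretch before the annotated start is given for 4 genes of the rule and for Klra5 and Klra8, which are outside it (RefSeq, GRCm38.p6, 5′ to 3′ on the minus strand). Each stretch was located by a short run that ends in TTTCCTC, so all of them hold those letters by construction. Capitals mark bases that differ from Klra6 at the same place when the stretches are laid side by side without gaps.
Klra6, chr6:130027056-130027115: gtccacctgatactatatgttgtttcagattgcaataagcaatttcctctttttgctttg
Klra3, chr6:130337628-130337687: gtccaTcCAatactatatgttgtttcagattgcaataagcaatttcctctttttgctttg
Klra9, chr6:130193133-130193192: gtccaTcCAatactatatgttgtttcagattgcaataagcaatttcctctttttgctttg
Klra7, chr6:130233394-130233453: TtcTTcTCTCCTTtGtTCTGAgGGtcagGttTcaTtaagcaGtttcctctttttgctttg
Klra5, chr6:129913297-129913356: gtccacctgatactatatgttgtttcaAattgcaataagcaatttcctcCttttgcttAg
Klra8, chr6:130129961-130130020: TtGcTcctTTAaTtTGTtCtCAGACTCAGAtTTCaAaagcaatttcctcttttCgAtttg
Klra3, Klra9 and Klra5 each differed from Klra6 at 3 of 60 bases, Klra7 at 22 and Klra8 at 27. A stretch close to that of Klra6 was thus not particular to the genes of the rule. The RefSeq window of Klra1 did not hold the stretch. The letters TTTCCTC, part of the run that located the stretches, were searched on both strands, so their share among Ly49 genes is a description. They stood before the start in the RefSeq promoter window of 9 of 11 Ly49 genes with one and in 7.61% of all 32851 windows. A run of 51 bases shared by Klra3, Klra6 and Klra9 stood in 3 of those windows and holds TTTCCTC itself. The transcripts are alike as well: 57.8% of the 31-base words of Klra9 and 43.5% of those of Klra3 also stand in another Ly49 gene, against 24.7% for Klra7, 15.6% for Klra6 and 7.28% for Klra1. Counts that separate Klra3 from Klra9 are therefore uncertain.

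Most of these cells carried transcripts of the T cell receptor, CD3 and CD8, of which the rule itself asked for CD3 and CD8. A Trac UMI and a Trbc2 UMI, from the constant regions of the alpha and beta chains, were found in 422 and 425 of 426 Ly49-positive cells of the control library and in 1002 and 1013 of 1015 of the NK-depleted library. Gamma delta barcodes, with a Cd3 and a Trdc UMI, had a Trac UMI in 87.5% and 93.3%. A Trbc1 or Trbc2 UMI was found in 98.2% and 99.3% of them, so these transcripts set the classes little apart. Cd3d was detected in 426 and 1015 Ly49-positive cells, Cd8a in 416 and 993, and Cd8b1 in only 338 and 816. Ncr1, which encodes the NK receptor NKp46, had a UMI in 5 and 1 of these cells, Zbtb16, the factor of invariant T cells, in 2 and 1, and Cd4 in 1 and 1. The Ly49-positive cells had a median of 14508 and 13890 UMIs, more than the 11281 and 12068 of the other CD8 T cells, so shares of cells with a UMI are also given after thinning each cell to 5400 UMIs. The libraries shared 391 barcode sequences, carried by 17 Ly49-positive cells in the control and 7 in the NK-depleted library. No doublet caller was run. Leaving out the 8% of cells with the most UMIs stands in for one, and each count that opens a comparison is given without those cells where it moves by more than 1.5 times. That cut fell unequally on the classes: it removed 16.4% and 12.5% of Ly49-positive cells, against 7.44% and 7.36% of the others.

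Ly49-positive cells made up 6.22% (5.66 to 6.82) of CD8 T cells in the control library and 12.6% (11.9 to 13.4) in the NK-depleted library. At 5400 UMIs per cell the shares were 4.23% (3.74 to 4.76; 263 of 6224 cells) and 8.83% (8.19 to 9.51; 643 of 7280 cells), after 623 and 750 shallower cells were left out. Both pairs of intervals were apart, in a comparison of 1 library with 1 library. Myeloid and dendritic barcodes, which should lack these receptors, had 0 of 78 and 0 of 42 barcodes with 2 or more such UMIs, which at 3 counts of the total allows shares of up to 3.85% and 7.14% (upper Clopper-Pearson bounds of 4.62% and 8.41%), at median depths of only 1073 and 1254 UMIs. Single UMIs were found in 5 and 4 of those barcodes, or 6.41% and 9.52%. The CD8 T cells just outside the threshold, with 1 UMI, were 2.77% and 6.48% of CD8 T cells and were not counted as Ly49-positive. Both shares lay within the intervals of that background, 2.11% to 14.3% and 2.66% to 22.6%, which came from far shallower barcodes. Just inside it, 81 and 181 cells had exactly 2 UMIs. Most members lay well above the threshold, with a median of 6 Ly49 UMIs per cell in both libraries and maxima of 61 and 52, as the plot of cells by Ly49 UMIs shows. Gamma delta barcodes, defined by a Cd3 and a Trdc UMI, carried 2 or more of these UMIs in 14 of 56 (25.0%; 14.4 to 38.4) and 34 of 135 (25.2%; 18.1 to 33.4).

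**Figure D1:**
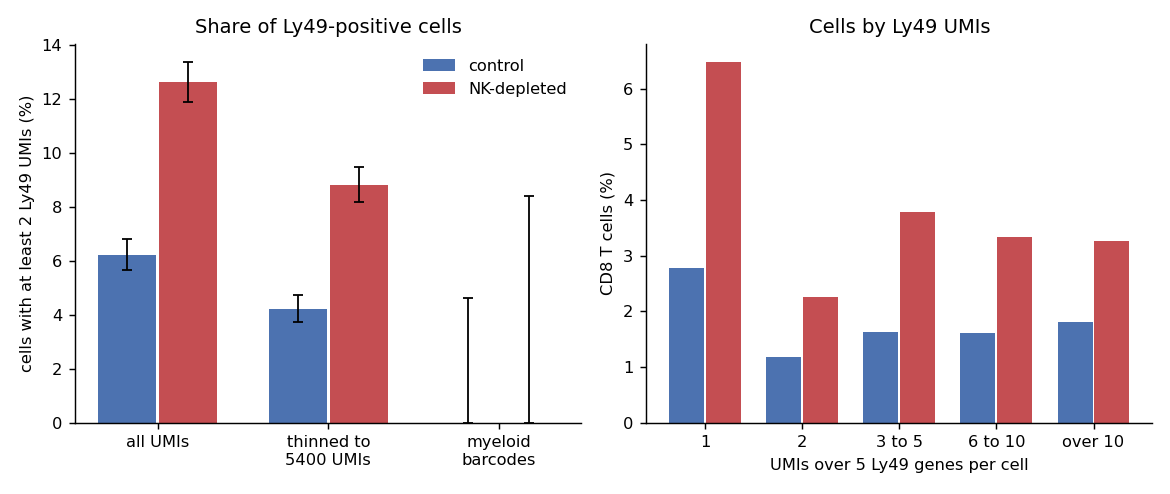
Left, percent of CD8 T cells with at least 2 UMIs over the 5 Ly49 genes in the control and NK-depleted libraries, with all UMIs and after thinning to 5400 UMIs, and the same in myeloid barcodes; lines are exact 95% Clopper-Pearson intervals. Right, percent of CD8 T cells by the number of Ly49 UMIs, from 1 to over 10. The NK-depleted bars are the higher ones in every class, at 12.6% against 6.22% in the first pair, and the myeloid bars are 0.

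Among the Ly49-positive cells, the inhibitory receptors encoded by Klra7 (Ly49G) and Klra6 (Ly49F) were the ones most often seen. Klra7 had a UMI in 61.7% and 54.1% of them in the control and NK-depleted libraries, Klra6 in 49.8% and 55.2%, Klra3 (Ly49C) in 31.2% and 34.2%, Klra1 (Ly49A) in 25.1% and 26.3%, and Klra9 (Ly49I) in 16.7% and 15.8%. These values chose the cells and are a description. One receptor was seen in 41.3% and 41.5% of cells, 2 in 36.4% and 35.96%, 3 in 19.01% and 18.3%, and 4 or 5 in 14 and 43 cells. Pairing was uneven. Of cells with a Klra1 UMI, 72.9% and 62.2% also had Klra7 and 62.6% and 61.4% Klra6, but 10.3% and 19.1% had Klra3. Of cells with Klra3, 26.3% and 35.7% had Klra7. Because the rule counts the sum, a cell with 1 UMI each of a pair passes where a cell with a single UMI does not, which raises every co-detection share.

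Summed over the cells, the 5 receptor genes stood at 433 and 459 CPM (UMIs summed over the cells of a class and scaled to that class's total without the 5 genes) in Ly49-positive cells. Klra7 was at 186 and 189 CPM, Klra6 at 78.2 and 90.97, Klra3 at 70.5 and 77.2, Klra1 at 64.3 and 73.9, and Klra9 at 33.8 and 28.6. The NK-depleted over control ratios of the 5 levels ran from 0.848 for Klra9 to 1.16 for Klra6. Of the Ly49 genes outside the rule, only Klra5 was measurable, at 14.4 against 3.42 CPM (control) and 25.6 against 16.8 CPM (NK-depleted). In the NK-depleted library Klra5 was thus found on both sides of the rule. Klra4 (Ly49D) and Klra8 (Ly49H), the activating receptors of NK cells, were at 0.894 and 0.49 CPM and at 0.335 and 1.197 CPM, and Klra2, Klra10 and Klra17 were each under 1 CPM.

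Against the other CD8 T cells, Ly49-positive cells had more transcript of Fcer1g, Ikzf2, Xcl1, Cxcl10 and Cd7. Of 3147 genes of at least 50 CPM in 1 of the 4 summed groups, 26 (0.826% of those tested) were at least 1.5-fold higher in both libraries, and 23 of these lay outside receptor and unnamed gene families. Fcer1g, whose product is the ITAM adaptor of several Fc and NK receptors, stood at 197 against 26.04 CPM (control) and 194 against 40.9 CPM (NK-depleted), ratios of 7.58 (7.13 to 8.06) and 4.74 (4.53 to 4.96). Ikzf2 stood at 443 against 88.8 CPM (control) and 467 against 122 CPM (NK-depleted), ratios of 4.99 (4.81 to 5.19) and 3.83 (3.73 to 3.94). In neither library did the intervals come near 1. Xcl1, the chemokine that draws cross-presenting dendritic cells, stood at 289 against 74.95 CPM (control) and 236 against 83.95 CPM (NK-depleted), ratios of 3.86 (3.69 to 4.04) and 2.81 (2.71 to 2.91). Cxcl10, an interferon-induced ligand of CXCR3, stood at 266 against 91.3 CPM (control) and 263 against 66.7 CPM (NK-depleted), ratios of 2.91 (2.78 to 3.04) and 3.94 (3.798 to 4.09). Cd7, an immunoglobulin superfamily receptor of T and NK cells, had ratios of 3.26 and 3.85, at 129.98 and 79.5 CPM in Ly49-positive cells. In the control library alone 42 genes (1.33%) were higher and 44 (1.4%) lower, and in the NK-depleted library alone 37 (1.18%) and 78 (2.48%).

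Ratios of the next genes were 3.09 and 2.79 for Klhdc2, a substrate receptor of a cullin ubiquitin ligase, 3.36 and 2.41 for Tnfsf8 (CD30 ligand), 2.37 and 2.401 for Tcf7 (TCF1), 2.68 and 1.93 for Treml2, 2.09 and 2.03 for Clec2i, a lectin ligand of the NKR-P1 family, and 2.36 and 1.73 for Il4ra. Tcf7 stood at 131 against 55.4 CPM (control) and 108 against 44.9 CPM (NK-depleted). The survival gene Bcl2 was at 379.9 against 253 CPM (control) and 534 against 322 CPM (NK-depleted), a ratio of 1.499 in the control library that lay just under the threshold. Tyrobp, which encodes DAP12, was higher at 50.5 against 30.2 CPM and 25.8 against 15.4 CPM in pooled sums, but not without cells that had a Mki67 or Top2a UMI, where its log2 ratio was -0.55. Hcst, which encodes the related adaptor DAP10, had ratios of 0.909 and 1.08. The counts of genes without the 8% deepest cells were 48 higher, 25 of them among the 26, and 105 lower, all 30 of the first among them.

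The same markers separated the classes in shares of cells. A UMI of Ikzf2 was found in 86.2% and 82.5% of Ly49-positive cells against 38.2% and 47.1% of the other cells, and after thinning in 72.01% and 70.9% against 24.9% and 32.5%. In myeloid barcodes the share with an Ikzf2 UMI was 10.3% and 23.8%. For Xcl1 the thinned shares were 46.4% and 45.9% against 8.58% and 13.2%. For Fcer1g they were 38.04% and 36.9% against 4.48% and 8.47%. Myeloid barcodes carry Fcer1g themselves, with a UMI in 94.9% and 88.1% of them. Macrophage markers were higher in Ly49-positive cells of the control library, where the sum over all 9 listed genes was 97.1 CPM against 29.9 CPM, with Apoe at 30.5 against 4.89 CPM, and 36.2 against 24.1 CPM in the NK-depleted library, with none of the 9 at 0. Without the cells that had at least 2 UMIs of macrophage or class II MHC genes (27 and 39 Ly49-positive cells), the log2 ratio of Fcer1g was 2.89 against 2.58 with them, and that of Tyrobp 1.31 against 0.74, each as the geometric mean over both libraries.

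**Figure D2:**
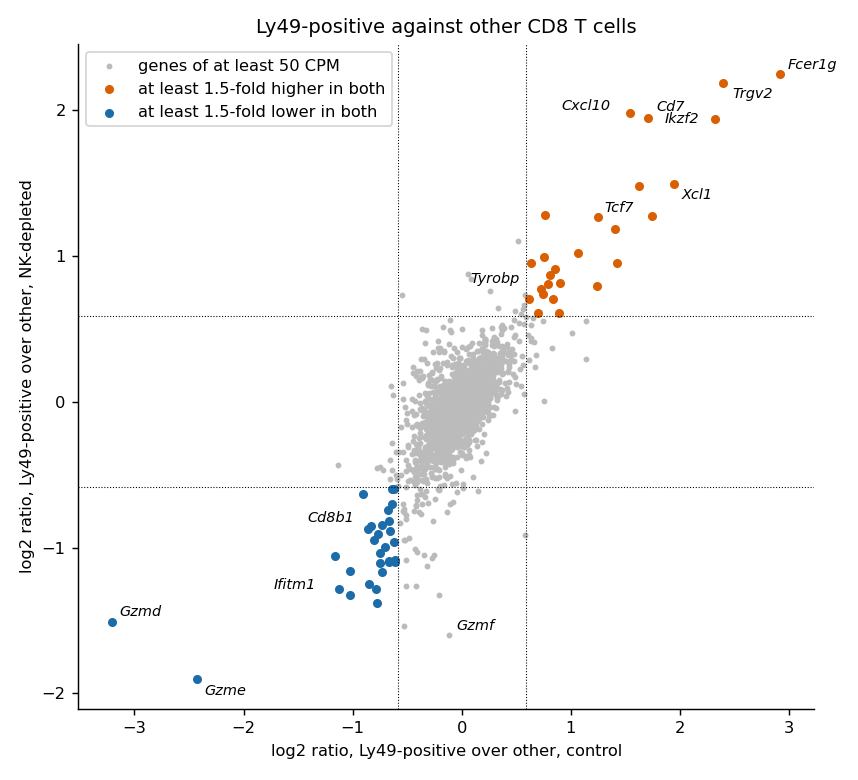
Each point is 1 of 3147 genes of at least 50 CPM, with the log2 ratio of Ly49-positive over other CD8 T cells in the control library on the horizontal axis and in the NK-depleted library on the vertical axis. Dotted lines mark 1.5-fold; 26 genes lie beyond it in the upper right, led by Fcer1g, and 30 in the lower left, led by Gzmd and Gzme.

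Lower in Ly49-positive cells were Gzmd, Gzme, Ifng, Pdcd1, Lag3 and Cd8b1. In both libraries 30 of 3147 genes (0.953%) were at least 1.5-fold lower. Gzmd stood at 5.03 against 46.5 CPM (control) and 49.5 against 141 CPM (NK-depleted), ratios of 0.108 (0.0789 to 0.145) and 0.351 (0.328 to 0.376). A Gzmd UMI was found in only 3.05% and 12.02% of Ly49-positive cells, against 5.28% and 18.8% of the others. After thinning the shares were 0.718% and 4.8% against 3.69% and 12.4%. The sums thus rest on a minority of cells, whose spread these intervals do not cover. The log2 ratio of Gzmd, as the geometric mean over both libraries, was -1.25 without Mki67 or Top2a cells in place of -2.36. Gzme had ratios of 0.186 and 0.268. Both are granzymes of strongly stimulated killer cells, and their neighbour Gzmf was at 347 against 377 CPM (control) and 569.9 against 1730.4 CPM (NK-depleted), so that its ratio passed the threshold in the NK-depleted library alone. Ifng, the interferon gamma gene, stood at 261 against 451 CPM (control) and 148 against 359 CPM (NK-depleted), ratios of 0.58 (0.556 to 0.604) and 0.411 (0.395 to 0.427). Pdcd1, which encodes PD-1, stood at 132 against 221 CPM (control) and 95.3 against 196 CPM (NK-depleted), ratios of 0.597 (0.562 to 0.633) and 0.487 (0.464 to 0.512). Ratios were 0.603 and 0.445 for Lag3, 0.613 and 0.501 for Ctla4, 0.653 and 0.471 for Entpd1 (CD39), 0.594 and 0.465 for the tumour-homing receptor Cxcr6, 0.446 and 0.479 for Csf1, 0.584 and 0.385 for Nrp1, 0.493 and 0.448 for Gzmk, 0.458 and 0.411 for the antiviral membrane protein Ifitm1, 0.555 and 0.421 for Sdcbp2 and 0.628 and 0.468 for Ttc39c. Id2, a factor of effector cells, had ratios of 0.624 and 0.598, while Id3, its relative in memory cells, was at 18.4 against 4.52 CPM and 16.8 against 4.32 CPM, below the level asked of a called gene.

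Cd8b1 stood at 649 against 1175 CPM (control) and 509 against 933 CPM (NK-depleted), ratios of 0.553 (0.538 to 0.567) and 0.545 (0.533 to 0.557). Cd8a differed less, at 641 against 900.2 CPM (control) and 538 against 726 CPM (NK-depleted), ratios of 0.712 and 0.742. The cells were sorted on CD8 and selected on a UMI of either gene, so cells without both were not seen. A Cd8b1 UMI was found in 338 of 426 and 816 of 1015 Ly49-positive cells, against 6325 of 6421 and 6840 of 7015 other cells. Among the TCR complex and co-receptor genes, 3 of 13 were lower in both libraries by a ratio of at least 5 to 4 and 0 higher. Over all 7858 genes of at least 10 CPM, 4.2% were higher and 3.74% lower by that rule, with medians of 0.00 and -0.01.

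Of progenitor and memory genes, 6 of 14 were higher and 0 lower, with median log2 ratios of 0.60 and 0.29 in the control and NK-depleted libraries; the higher ones included Tcf7, Id3 and Xcl1. Of inhibitory receptor and exhaustion genes, 0 of 12 were higher and 6 lower, with median log2 ratios of -0.34 and -0.40. Of cytotoxic granule genes, 0 of 16 were higher and 6 lower, with median log2 ratios of -0.33 and -0.54; Gzmb, the main granzyme of killer cells, was at 1728 against 2149 CPM (control) and 2239.9 against 2928 CPM (NK-depleted). The cytotoxic medians were -0.61 and -1.04 without the 8% deepest cells and -0.64 and -1.02 without cells that had a Mki67 or Top2a UMI, and the inhibitory medians -0.62 and -0.65 and -0.70 and -0.73, all further below 0, while the progenitor medians were 0.83 and 0.32 without the first and 0.74 and 0.13 without the second. Of T cell transcription factors, 3 of 22 were higher and 9 lower, with median log2 ratios of -0.19 and -0.32; the higher ones were Ikzf2, Id3 and Eomes, a factor of memory and NK cells at 29.2 against 19.6 CPM and 45.7 against 26.01 CPM. Of 12 measured genes reported for regulatory CD8 T cells, 1 was higher, Ikzf2, and 4 were lower, Icos, Nrp1, Prf1 and Lag3. Il2rb, the interleukin 15 receptor beta chain, differed little, with ratios of 1.15 and 1.02. Of 13 genes of innate-like intraepithelial cells, 4 were higher, Fcer1g, Tyrobp, Cd160 and Kit, at ratios of 1.44 and 1.46 for Cd160 and 1.26 and 1.46 for Kit. The log2 ratio of Kit was -0.15 in place of 0.44 without cells that had a gamma or delta segment UMI, and that of Tyrobp -0.55 in place of 0.74 without cells that had a Mki67 or Top2a UMI, both in the opposite direction. Of other NK receptors, 3 of 11 were higher and 1 lower, with median log2 ratios of 0.11 and -0.09; the lectin Klrc1 (NKG2A) had ratios of 0.702 and 0.667, Klrd1 (CD94) of 0.841 and 0.867 and Klrk1 (NKG2D) of 0.891 and 0.81. Of these NK receptor genes Klrc1 was the 1 called lower.

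Of cytokines and chemokines, 2 of 14 were higher and 6 lower, with median log2 ratios of -0.34 and -0.34; Xcl1 and Tnfsf8 were the higher ones, and Tnf, the tumour necrosis factor gene, was at 10.1 against 16.1 CPM (control) and 11.3 against 17.5 CPM (NK-depleted). Of costimulatory receptors, 1 of 13 were higher and 4 lower, with median log2 ratios of -0.22 and -0.32; Cd7 was the higher one, and Cd28, the main costimulatory receptor, was at 197 against 254 CPM (control) and 138 against 188 CPM (NK-depleted). Of tissue residency genes, 1 of 9 were higher and 2 lower, with median log2 ratios of -0.17 and -0.16; Ahr, the aryl hydrocarbon receptor, was the higher one at 23.6 against 12.2 CPM (control) and 26.7 against 11.2 CPM (NK-depleted), and Prdm1 (BLIMP1), a factor of effector cells, had ratios of 0.602 and 0.458. Of circulating effector genes, 3 of 9 were higher and 1 lower, with median log2 ratios of 0.06 and 0.24; Klf3 and S1pr1 were among the higher ones and Cx3cr1, the fractalkine receptor, was lower at ratios of 0.701 and 0.47. Of virtual memory and IL-15 genes, 3 of 16 were higher and 1 lower, with median log2 ratios of -0.10 and 0.07; Eomes and Bcl2 were among the higher ones and Ccl5 was lower. Of ITAM adaptors and proximal signalling genes, 2 of 14 were higher and 2 lower, with median log2 ratios of -0.14 and -0.22; the lower ones were Lat, the adaptor of the T cell receptor, at ratios of 0.741 and 0.753, and Sh2d2a. Of type I interferon genes, 1 of 21 were higher and 0 lower, with median log2 ratios of -0.28 and 0.25, the medians being of opposite sign in the libraries, and of interferon gamma genes, 1 of 20 were higher and 0 lower, with median log2 ratios of -0.18 and 0.11. These shares stand beside 4.2% higher and 3.74% lower over all genes.

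Klrb1c, the NK1.1 gene, was found in 20.7% and 13.6% of Ly49-positive cells and in 1.402% and 3.06% of the others. Its level in Ly49-positive cells was 27.9 CPM (control) and 14.5 CPM (NK-depleted), with a ratio of 0.52 (0.436 to 0.62), while in the other cells it was 1.27 and 3.25 CPM. The depleting antibody binds the product of this gene, and what part that has in the difference was not tested. The sum over the 15 listed NK cell markers was 3528 and 3481 CPM in Ly49-positive cells against 4159.5 and 3946 CPM in the others, and is mostly Nkg7, which CD8 T cells express; 5 of 10 measured were higher by the 5 to 4 rule, 1 was lower, and none of the 15 was at 0. The defining marker Ncr1 was near 0, at 0.894 and 0.0544 CPM.

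Ikzf2 was higher the more Ly49 UMIs a cell had. It stood at 85.7 CPM in control cells with 0 Ly49 UMIs, 153 with 1, 231 with 2, 309.8 with 3 to 5, 485 with 6 to 10 and 652 with over 10. The NK-depleted values in the same order were 118, 161, 297, 383, 513 and 628 CPM. The order was the same in both libraries, with each class above the one before. Cd8b1 was lower at the upper end, going from 1188 to 499 CPM (control) and from 946 to 359 CPM (NK-depleted) between 0 and over 10 UMIs, and Cd8a from 909 to 577 and from 733 to 490.1 CPM. Pdcd1 was at 223 and 91.3 CPM at the ends in the control library and at 199.6 and 79.8 in the other. Fcer1g and Xcl1 were highest in cells with over 10 UMIs, at 321 and 307 CPM and at 499.96 and 335 CPM. Their levels were not stepwise: between 2 and 3 to 5 UMIs Fcer1g was at 159 and 94.9 CPM (control) and 145 and 131 CPM (NK-depleted), and control Xcl1 was at 107, 64.4 and 139 CPM at 1, 2 and 3 to 5 UMIs. Nor was control Cd8b1, at 674 CPM with 3 to 5 and 687 with 6 to 10. Median depth was not level across the classes, from 11180 UMIs at 0 to 17996 at over 10 in the control library, and from 11951 to 15380 in the NK-depleted library.

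**Figure D3:**
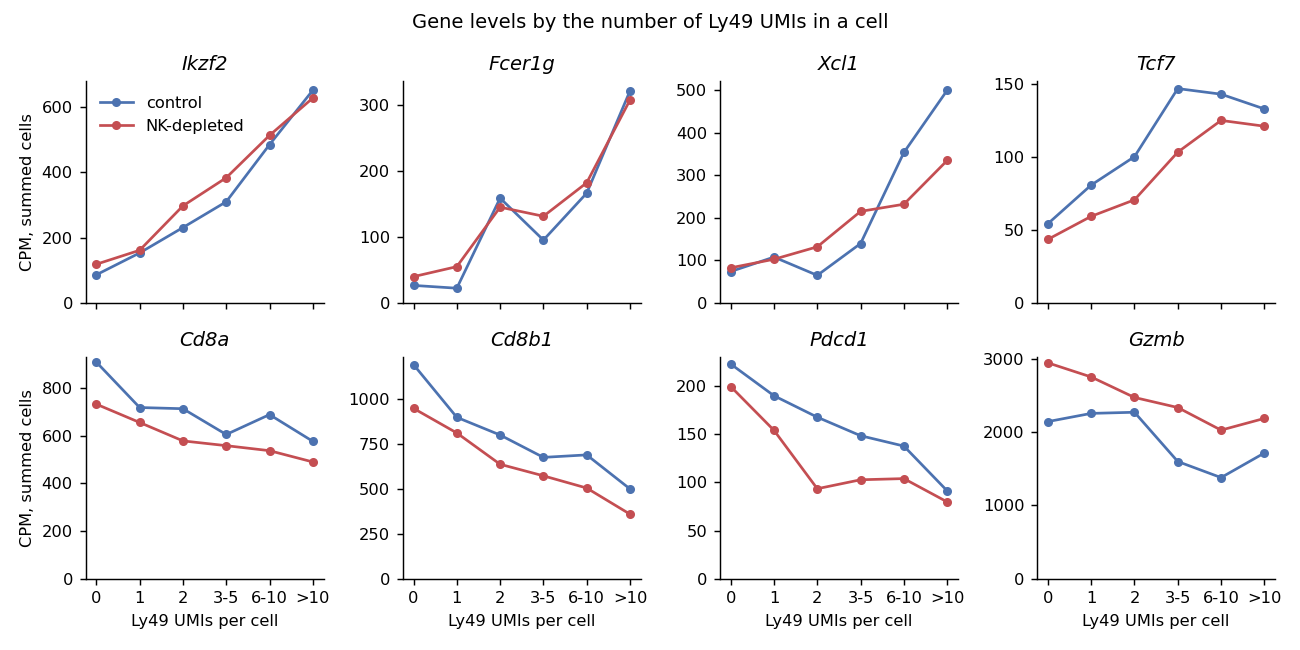
Level in CPM of summed cells (vertical axes, linear, from 0) of 8 genes in cells with 0, 1, 2, 3 to 5, 6 to 10 and over 10 UMIs of the 5 Ly49 genes, for the control (blue) and NK-depleted (red) libraries. Ikzf2 climbs from 85.7 to 652 CPM in the control library and Cd8b1 goes down from 1188 to 499 CPM, and the NK-depleted lines of both end on the same side.

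The cells differed by the receptor with the most UMIs. In the control library Klra7 led in 167 cells, Klra3 in 95, Klra6 in 54, Klra1 in 39 and Klra9 in 22, and 49 had a tie; in the NK-depleted library the numbers were 354, 199, 203, 102, 61 and 96. Cells led by Klra3 had the lowest Ikzf2 in both libraries, 205 and 297 CPM, against 557 and 581 CPM in cells led by Klra7 and 621 and 413 CPM in cells led by Klra6. They also had the lowest Fcer1g, 118 and 117 CPM, against 231 and 239.9 CPM with Klra7. Cd8b1 was highest in them, at 833 and 637 CPM against 559 and 436 CPM. Gzmb and Gzmf were higher in them, at 2477 and 2682 CPM and at 774 and 928 CPM, against 1275 and 2196 CPM and 43.2 and 404 CPM in cells led by Klra7. Cells led by Klra6 had Gzmf at 643 and 586 CPM. Gzmc was higher in cells led by Klra6, at 171 and 302 CPM, than in those led by Klra3, at 134 and 271 CPM. The Klra3 group of the control library was also the deepest, with a median of 24053 UMIs against 12026 for Klra7, while the NK-depleted medians were 14619 and 13044; the part of depth was not tested.

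Transcripts of the gamma chain locus were found in most Ly49-positive cells, although none had a Trdc UMI by the rule. A UMI of a Tcrg constant, Trgv or Trdv gene was found in 230 of 426 (54.0%) and 554 of 1015 (54.6%) of them, against 643 of 6421 (10.0%) and 972 of 7015 (13.9%) of the other CD8 T cells. After thinning the shares were 36.1% and 39.8% against 6.49% and 8.41%. Trgv2 was the gene most often seen, in 36.9% and 38.4%, then Tcrg-C2 in 34.7% and 35.8% and Tcrg-C4 in 22.5% and 25.02%, where the other cells had 0.545% and 1.78%. The gamma delta barcodes themselves had a UMI of a segment other than Trdc in 42.9% and 47.4%, of Trgv2 in 26.8% and 28.9% and of Tcrg-C4 in 23.2% and 21.5%. The delta V segment Trdv4 was in 0.235% and 0.0985% of Ly49-positive cells against 8.93% and 5.19% of the gamma delta barcodes. Of the Ly49-positive cells with such a UMI, 98.7% and 98.2% had a Trac UMI and 45.7% and 45.8% a Trbv UMI, close to the 99.5% and 99.3% and the 51.5% and 41% of those without. The gamma delta barcodes had a Trac UMI in 87.5% and 93.3% and a Trbv UMI in 39.3% and 40.7%, so these transcripts set the classes little apart. The sum over the 13 gamma delta markers in the files was 122 and 154 CPM against 23.2 and 33.1 CPM, with Sox13, Blk and Trdv5 among those at 0 in both libraries.

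In Ikzf2, Cd7, Cxcl10 and Cd8b1, Ly49-positive cells with a gamma or delta segment UMI lay further from the other CD8 T cells than those without. Those with such a UMI also had more Ly49 UMIs, at medians of 8 and 7 against 5 and 4, the part of which was not tested. Ikzf2 was at 617 and 630.4 CPM in them, at 262 and 256 CPM in Ly49-positive cells without one, and at 82.95 and 109 CPM in other cells without one. Cd7 was at 188 and 113 CPM with and 69.1 and 36.9 CPM without, and Cxcl10 at 380.0 and 369.9 CPM with and 147 and 125 CPM without. Cd8b1 was lower with, at 521 and 401 CPM against 783 and 647 CPM. Other CD8 T cells with such a UMI had Ikzf2 at 129.6 and 177 CPM and Cd8b1 at 1193 and 888 CPM. Tcf7 was less split, at 153 and 119 CPM with and 109 and 93.1 CPM without. When all cells with a gamma or delta segment UMI were left out of both classes, an alternative chosen after seeing the data, 18 genes were higher in both libraries, 12 of them among the 26, and 9 lower, 7 of them among the 30. The log2 ratio of Ikzf2 was then 1.44 in place of 2.13, that of Cxcl10 0.88 in place of 1.76, that of Cd7 0.89 in place of 1.83 and that of Fcer1g 1.92 in place of 2.58. Whether these transcripts come from a gamma delta receptor or from a locus that is open in alpha beta T cells was not tested.

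**Figure D4:**
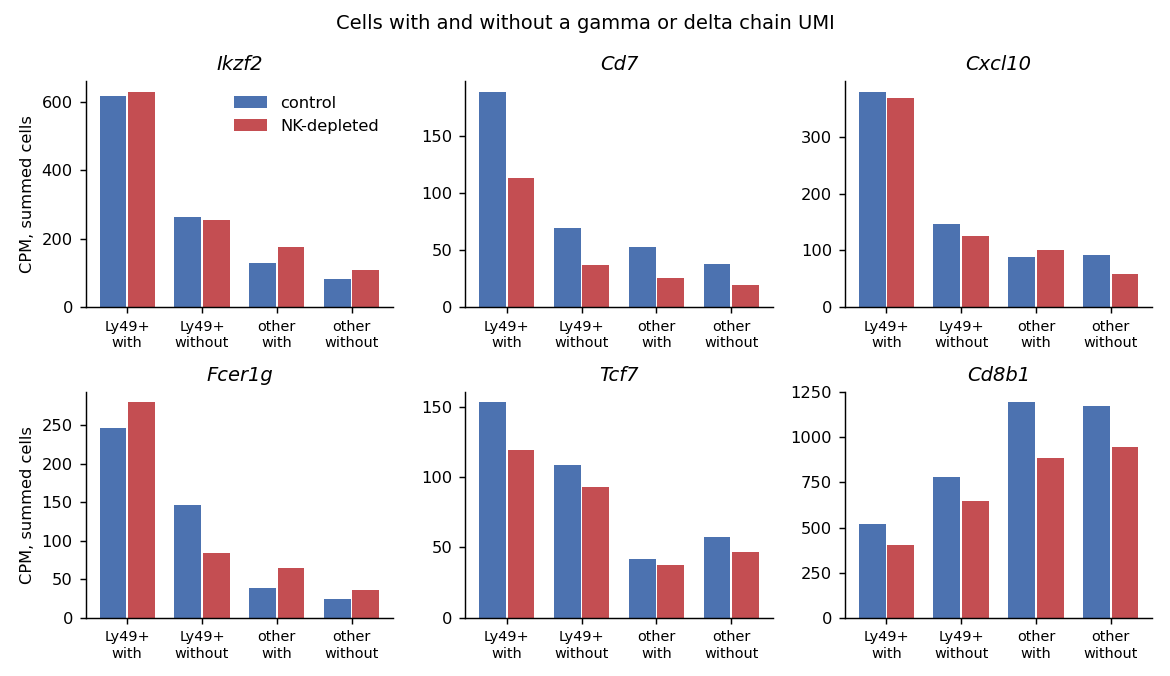
Level in CPM of summed cells of 6 genes in Ly49-positive and other CD8 T cells with and without a UMI of a gamma or delta chain segment, for the control (blue) and NK-depleted (red) libraries. Ikzf2 is at 617 and 630.4 CPM in Ly49-positive cells with such a UMI and Cd8b1 is lowest there, at 521 and 401 CPM.

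The classes most like the Ly49-positive cells were set beside them. In Ly49-low cells with a Klrb1c UMI (90 and 215 cells), Ikzf2 was at 174 and 178 CPM, Xcl1 at 85.6 and 136, Tcf7 at 53.9 and 19.2, and Gzmf at 1127 and 3191 CPM. The 4 values for Ikzf2 and Xcl1 lay below those of the Ly49-positive cells and the 2 for Gzmf above, with 1 summed value for each class and library. In gamma delta barcodes (56 and 135) Ikzf2 was at 192 and 227 CPM, Fcer1g at 188 and 95.1, Tcf7 at 173 and 91.9, and Cxcl10 at 84.6 and 91.9 CPM. In both libraries Ikzf2 and Cxcl10 were lower in these barcodes than in Ly49-positive cells, while Tcf7 was higher in the control and lower in the NK-depleted library. The gamma delta barcodes that also had 2 or more Ly49 UMIs, 14 and 34, had Ikzf2 at 413 and 386 CPM, Xcl1 at 281 and 119.8, Fcer1g at 443 and 163 and Cd8b1 at 395 and 379 CPM, set beside 443 and 467, 289 and 236, 197 and 194 and 649 and 509 CPM in Ly49-positive cells. With Ly49 UMIs in both classes the gap in Ikzf2 was thus smaller, and Fcer1g was higher in the gamma delta barcodes of the control library and lower in those of the NK-depleted one.

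A Trbv segment was read in 206 and 443 Ly49-positive cells, taken as the Trbv gene with the most UMIs. The inverse Simpson index, the number of equally used segments that would give the same diversity, was 13.4 and 13.3, against 13.3 and 13.8 in the other CD8 T cells. Trbv12-2 was used by 12.1% (8.01 to 17.4) and 13.99% (10.9 to 17.6) of Ly49-positive cells with a segment, against 8.35% (7.34 to 9.45) and 9.46% (8.35 to 10.7) of the others, intervals that overlapped in the control library and were apart in the NK-depleted one. Trbv26 was apart there in the other direction, at 4.29% (2.60 to 6.62) against 8.24% (7.20 to 9.38). In the control library it was at 5.34% (2.70 to 9.35) against 6.67% (5.76 to 7.67). The segments named were picked after their values were seen. The intervals take cells as independent, which cells of a shared clone are not. Trbv29 was at 2.43% (0.793 to 5.57) and 2.48% (1.246 to 4.399) against 5.86% (5.01 to 6.81) and 3.07% (2.44 to 3.82). No Trbv segment exceeded 14.0% of Ly49-positive cells with a segment. For alpha chains, read in 194 and 399 cells, the index was 20.3 and 25.3 against 28.4 and 23.96, and Trav16n was the segment most often read, in 15.5% and 10.5%. These are gene-level tags, not assembled receptors, and clones cannot be told from them. Trav11 and Traj18, the segments of invariant NKT cells, had a UMI in 0 and 1 and in 0 and 0 Ly49-positive cells.

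When all CD8 T cells were clustered without the Klra genes, receptor segments, mitochondrial and ribosomal genes, the Ly49-positive cells did not form 1 cluster. Of 14 clusters, cluster 11, led by Igfbp4, Il6ra, S1pr1 and Tcf7, held 30.5% and 21.9% of them in the control and NK-depleted libraries. Cluster 9, led by Tnfsf8, Tlr7, Irs2 and Xcl1, held 9.62% and 37.5%, and cluster 8, led by Trim30c, Cxcl10, S1pr1 and Tcf7, 20.7% and 5.42%. Ly49-positive cells were the minority of each, 31.1% and 37.7% of cluster 8 at most. Cluster 9 held 2.02% and 16.99% of the other cells, so its share differed between the libraries in both classes. Next to none lay in clusters 0 and 3, led by Actn2 and Itga4 and by the Ifit genes, with 8 and 6 cells of the control and 0 of the NK-depleted library. At a finer resolution of 1.5, a cluster of 307 cells was Ly49-positive in 97 of 118 control and 142 of 189 NK-depleted cells, and held 22.8% and 13.99% of them. Within cluster 8 the Ly49-positive cells still had Ikzf2 at 631 and 728 CPM against 89.4 and 98.3 CPM in its cells with 0 Ly49 UMIs, while Tcf7 was alike, at 215 and 162 against 226 and 168 CPM.

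Between the libraries, NK-depleted Ly49-positive cells were higher in Gzmc, Ifitm genes and AA467197, and lower in Ccl chemokines, Tox and integrin alpha 4. Of 3005 genes of at least 50 CPM in either group, 16 (0.532%) were at least 1.5-fold higher and 65 (2.16%) at least 1.5-fold lower. In the other CD8 T cells the shares were 0.727% and 2.74% of 3026 genes, and 8 of the 16 and 20 of the 65 passed in the same direction there. Without the 8% deepest cells the counts in Ly49-positive cells were 44 and 71, without cells with a gamma or delta segment UMI 23 and 118, and with TMM factors as the scaling 22 and 38. In Ly49-positive cells Gzmc stood at 76.2 CPM (control) and 229.9 CPM (NK-depleted), a ratio of 3.02 (2.78 to 3.28), against 103 and 463 CPM in the other cells, a ratio of 4.51 (4.41 to 4.61). AA467197, the transcript also known as Nmes1, stood at 57.9 and 207 CPM, a ratio of 3.57 (3.26 to 3.92). The ratios in Ly49-positive and in other cells were 2.87 and 3.18 for Ifitm2, 1.84 and 2.05 for Ifitm1, 1.74 and 1.88 for Ifitm3, 1.87 and 2.18 for the stress gene Gadd45g, 1.76 and 1.78 for Ddit4, 1.81 and 1.19 for the inhibitory receptor Lilrb4a, and 1.72 and 1.47 for Ctla2a. Gzma had a ratio of 1.701, but without the 8% deepest cells its log2 ratio was -0.49 and without cycling cells -0.45, the opposite direction.

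Ccl5, a chemokine of memory and effector cells, stood at 2331 and 928 CPM in control and NK-depleted Ly49-positive cells, a ratio of 0.398 (0.39 to 0.406), and at 3074 and 1166 CPM in the others, a ratio of 0.379 (0.377 to 0.382). Tox, a factor of exhausted cells, stood at 66.5 and 24.6 CPM, ratios of 0.37 in Ly49-positive and 0.331 in other cells. Itga4 had ratios of 0.442 and 0.301. All 3 were lower in the NK-depleted library in both classes. The activation chemokines differed more in Ly49-positive cells: Ccl4 had ratios of 0.395 and 0.688, Ccl3 of 0.369 and 0.662 and Ccl1 of 0.221 and 0.623, as did Bcl2a1d, a survival gene, of 0.452 and 0.619. Nrgn had ratios of 0.315 and 0.552, but in Ly49-positive cells its log2 ratio was -0.14 without cells that had a Mki67 or Top2a UMI, in place of -1.66. Gzmf differed less in the sum, at 347 and 569.9 CPM, a ratio of 1.64 against 4.59 in the other cells. Its control and NK-depleted levels were 931 and 883 CPM in cells with exactly 2 Ly49 UMIs and 428 and 703 with 3 to 5. With 6 to 10 they were 85.3 and 398 CPM and with over 10 they were 92.0 and 381 CPM. The libraries thus lay further apart in Gzmf above the threshold than in the sum. With 1 library for each treatment the differences between Ly49-positive and other cells were not tested. The class II MHC genes H2-Aa and H2-Eb1 had ratios of 0.417 and 0.445 in Ly49-positive cells. Once the 27 and 39 cells with at least 2 UMIs of macrophage or class II genes were left out, their log2 ratios were 0.65 and 0.61. The genes of that filter include H2-Aa and H2-Eb1 themselves, so no cell left could hold more than 1 UMI of them. The change of sign therefore cannot be read as an opposite direction. Of the Ly49-positive markers, Ikzf2 and Fcer1g were near level, with ratios of 1.05 and 0.982, whereas in the other cells these were 1.37 and 1.57. Xcl1 was lower in CPM in the NK-depleted library, but 46.4% and 45.9% of thinned control and NK-depleted Ly49-positive cells had a UMI. Cd7 and Klrb1c were not level, with thinned shares of 45.5% and 27.7% and of 11.2% and 6.8%.

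Interferon response genes differed between the libraries less in Ly49-positive cells than in the others, as the plot of list medians shows, a difference between the classes that was not tested. By the 5 to 4 list rule, 4.36% of all genes were higher and 14.5% lower in NK-depleted Ly49-positive cells, and 6.9% and 12.3% in the other cells, with medians over all genes of -0.07 in Ly49-positive and -0.06 in other cells. Of 21 type I interferon genes, 6 were lower and 2 higher in Ly49-positive cells, against 18 lower and 0 higher in the others, with medians of -0.07 in Ly49-positive and -0.61 in other cells. Over the alternatives the type I median lay between -0.12 and 0.02 in Ly49-positive and between -0.72 and -0.52 in other cells. Cluster 3, led by the Ifit genes, held 17.6% of the other cells in the control and 1.88% in the NK-depleted library. It held 1.41% and 0% of the Ly49-positive cells. What part this cluster has in the list medians was not tested. Oasl2, an interferon-induced antiviral gene, stood at 77.7 and 85.96 CPM in control and NK-depleted Ly49-positive cells and at 73 and 47.96 CPM in the others. Irf7, the factor that amplifies the response, stood at 284 and 300.3 CPM and at 304 and 215 CPM, and Ifi44 at 22.5 and 31.6 CPM and at 16.3 and 8.41 CPM. In the NK-depleted library the Ly49-positive level of all 3 genes was above that of the other cells, where the list median against them was 0.25. In the control library Oasl2 and Ifi44 were above as well and Irf7 below, where the list median was -0.28. The 3 genes are examples out of 21 and are not typical of the list. All 3 were higher in NK-depleted than in control Ly49-positive cells, where the list median was -0.07. Of 20 interferon gamma genes, 3 were lower in Ly49-positive cells and 14 in the others, with medians of -0.13 in Ly49-positive and -0.43 in other cells, and of 13 class I MHC genes 1 and 6, with medians of -0.07 in Ly49-positive and -0.32 in other cells. The Ifitm genes, also interferon-induced, were higher in the NK-depleted library in both classes, with medians of 0.84 in Ly49-positive and 0.97 in other cells.

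Cell cycle genes were next. Of 20 G2 and M phase genes, 2 were higher in NK-depleted Ly49-positive cells and 20 in the others, with medians of 0.09 in Ly49-positive and 0.47 in other cells, but without the 8% deepest cells the medians were 0.68 and 0.55, so that the gap between the classes was not seen without those cells. The share of cells with a Mki67 or Top2a UMI, genes of dividing cells, was 34.7% and 48.1% of Ly49-positive cells after thinning and 36.6% and 51.5% of the others. More cells with these transcripts were thus seen in the NK-depleted library in both classes. Medians were 0.18 in Ly49-positive and 0.34 in other cells for S phase genes and 0.09 in Ly49-positive and 0.33 in other cells for glycolysis and hypoxia genes, of which 2 and 9 of 17 were higher. Without the 8% deepest cells these medians were 0.42 and 0.49 for S phase and 0.31 and 0.37 for glycolysis and hypoxia, and without cells that had a Mki67 or Top2a UMI the S phase medians were 0.50 and 0.21, so that the order of the classes in S phase genes was the opposite there. Of inhibitory receptor and exhaustion genes, 9 of 12 were lower in Ly49-positive and 7 in other cells, with medians of -0.62 in Ly49-positive and -0.44 in other cells. Havcr2, which encodes TIM-3, was at 97.1 and 64.3 CPM in Ly49-positive and at 138 and 154 CPM in other cells. Progenitor and memory genes had medians of -0.29 in Ly49-positive and -0.08 in other cells, with Tcf7 at 131 and 108 CPM in Ly49-positive cells.

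**Figure D5:**
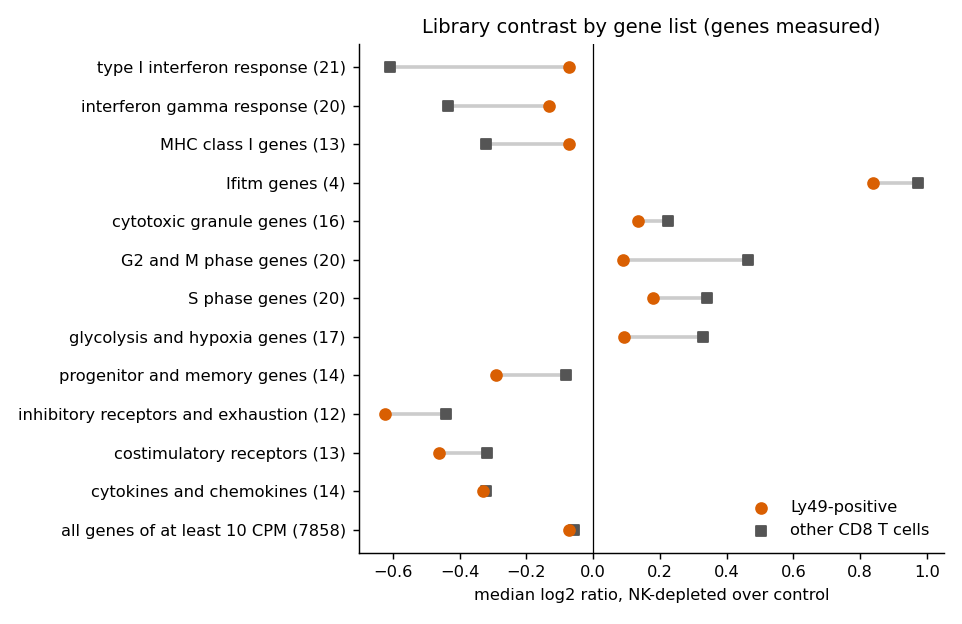
Median log2 ratio of the NK-depleted over the control library (horizontal axis) for 12 gene lists and all genes of at least 10 CPM, with the number of genes measured in brackets, in Ly49-positive cells (circles) and other CD8 T cells (squares). Type I interferon genes sit at -0.07 and -0.61, the widest gap of the lists drawn; there is 1 library for each treatment, and the gaps have no test.

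Markers of other cells that a CD8 sort could hold were summed over whole lists in Ly49-positive against other CD8 T cells, control and NK-depleted. B cell markers were at 96 and 85.6 CPM against 56.8 and 36.2 CPM, nearly all of it Ighm, with 5 and 3 of 8 genes at 0, among them Ms4a1 and Pax5. Dendritic cell markers were at 1007 and 775 CPM against 1080.1 and 722 CPM, most of it the interferon-induced gene Bst2, which T cells express, and Siglech had 2 and 0 UMIs. CD4 T cell markers were at 235 and 183 CPM against 339.6 and 332 CPM, mostly Ctla4 and Il2ra, with Cd4 at 1 UMI in each library. Neutrophil, fibroblast and endothelial, and tumour epithelial markers were at 17.1 and 24.8 CPM against 32.7 and 31.3 CPM, at 26.6 and 21.1 CPM against 22.3 and 18.4 CPM and at 20.6 and 22.5 CPM against 21.97 and 10.5 CPM. Invariant T cell markers were at 53.9 and 30.8 CPM against 43.9 and 31.1 CPM, most of it Klrb1c and Slamf1, with 4 and 3 of 9 genes at 0. All 5 erythroid genes had 0 UMIs in Ly49-positive cells. The part of such transcripts in the results above was not tested beyond the values given beside them.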

How the data were processed

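The authors deposited a matrix of UMI counts for each library, as raw whole-number counts of each gene in each barcode per the file headers, made with Cell Ranger 6.1.2 on mm10 and handled with Seurat 4.0.6 per the submitters' processing notes. The libraries held 108106687 (control) and 128853437 (NK-depleted) UMIs in 7866 and 10111 barcodes. Counts were read with scanpy 1.11.5, summed over the cells of a class and library and scaled to the class total without the 5 genes of the rule. Ratios carry exact conditional binomial intervals and shares Clopper-Pearson intervals, both of 95%. A gene was called at 1.5-fold in both libraries and 50 CPM in 1 group, and a list member at a ratio of 5 to 4 and 10 CPM. Named genes were the Klra genes, the 12 largest and 12 smallest called ratios against other cells, the 10 at either end between the libraries, up to 4 members of each list and a short fixed set; receptor segments, sex-linked and unnamed genes were left out of the ranking, and genes cited outside this rule were chosen after their values were seen. The members and lists were chosen with earlier results of these data known. Cells were clustered by the Leiden method on 2000 variable genes, 30 principal components and 15 neighbours. TMM factors (edgeR 4.0.16) and median-of-ratios factors (DESeq2 1.42.0) served as alternative scalings, with no test. Intervals and calls were tested on simulated sums with counting error only. Those sums had no spread between cells or libraries, so they cannot show how the intervals hold for these cells. Positions come from GENCODE M21, matched by gene ID for 32158 of 32285 genes. Some genes are not reported here.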

Additional observations from a re-analysis of the deposited data

How the results depend on the processing

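The counts of genes 1.5-fold higher and lower in Ly49-positive cells of both libraries (26 and 30) were 48 and 105 without the 8% of cells with the most UMIs, 48 and 117 without cells with a Mki67 or Top2a UMI, 18 and 9 without cells with a gamma or delta segment UMI, 40 and 89 with the mean over cells in place of sums, 60 and 56 at a minimum of 20 CPM and 11 and 18 at 100 CPM. The counts between the libraries in Ly49-positive cells (16 and 65) were 44 and 71 without the deepest cells, 26 and 89 without Mki67 or Top2a cells, 23 and 118 without gamma or delta segment cells, 26 and 60 with the mean over cells, 22 and 38 with TMM factors, 25 and 38 with median-of-ratios factors, 39 and 148 at 20 CPM and 11 and 31 at 100 CPM. A lower minimum tests more genes; the other causes were not tested. The Ly49-positive shares (6.22% and 12.6%) were 8.997% and 19.1% at 1 UMI or more, 5.04% and 10.4% at 3 or more, 5.65% and 12.02% without the deepest cells, 3.28% and 7.09% without gamma or delta segment cells and 4.23% and 8.83% after thinning. The NK-depleted share was the higher one in each. The largest share of Ly49-positive cells in 1 cluster was 29.3% at resolution 1, 32.8% at 0.5 and 19.9% at 1.5. Opposite directions were seen for Gzma between the libraries, with log2 ratios of -0.49 without the deepest and -0.45 without Mki67 or Top2a cells, for Tyrobp against other cells, -0.55 without the latter, and for H2-Aa and H2-Eb1 between the libraries, 0.65 and 0.61 without cells with 2 myeloid UMIs. These 5 were the reversed values among genes past the 1.5-fold and 50 CPM thresholds. Those of H2-Aa and H2-Eb1 came from a filter that counts these genes themselves, so their sign after it cannot be read. Genes under those thresholds changed sign too, among them H2-Aa and H2-Eb1 against other cells, -1.78 and -1.98 without the deepest cells in place of 0.38 and 0.21, Kit and Cd244a, -0.15 and -0.17 without gamma or delta segment cells in place of 0.44 and 0.36, and Zbtb16, -0.16 with the mean over cells in place of 1.57. Of the other values of single genes, 440 lay outside the counting interval of the reported value and 583 inside. Of the recomputed list medians, 59 moved by at least 0.15 and 421 by less. Leaving out cells of shared barcodes, of gamma or delta segment UMIs and of myeloid UMIs was chosen after seeing the data, as was the recomputing of list medians. No paired analysis was possible because each group holds 1 library, which also left no replicate to leave out. Depth bears on membership: a cell with few UMIs can fall below 2 Ly49 UMIs by sampling alone.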
